A study of Mus musculus with 6 samples.

Results

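The genes described here serve the entry of leukocytes into tissue and lymph nodes. They are 9 genes, Glycam1, Madcam1, Cd34, Chst4, Fut7, Selp, Vcam1, Icam1 and Ptprc, of 18193 genes with a probe set of their own on the arrays. They were chosen by gene symbol, from high endothelial mucins and enzymes, selectins and adhesion molecules, with the differences between these samples already known, so their values are a description and carry no test. All 9 were measured, by 14 probe sets; Selp and Vcam1 had 3 each and Ptprc had 2. The series compared Prox1-OE pancreas (genotype Jojo-Prox1,Ngn3-cre, 3 samples), in which the homeobox factor Prox1 is overexpressed, with control pancreas (genotype Ngn3-cre, 3 samples). Both groups were NMRI mice at postnatal day 15, both carried Ngn3-cre, and each sample was total RNA of whole pancreas on 1 Affymetrix 3' expression array. Ngn3-cre acts in endocrine progenitors, while the genes described here are known from vessel and blood cells. Which cells carried the active transgene was not measured. Nothing in the labels ties a sample to its own animal or litter.

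Lymphocytes leave the blood in lymph nodes through high endothelial venules, vessels lined by tall endothelial cells. These cells display mucins with sulphated and fucosylated sugars that passing lymphocytes bind, which slows them to a roll. Chemokines then activate integrins on the rolling cells, and the integrins hold on to immunoglobulin-like adhesion molecules of the endothelium. The pancreas has no such venules of its own in health, but lymph nodes lie against it and inside the fat around it.

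Values are the deposited log2 probe set summaries, where a step of 1 is a doubling of signal. The 3 probe sets of Prox1 did not separate the groups: the brightest read 5.3, 4.98 and 5.31 in Prox1-OE and 5.61, 4.9 and 4.9 in control. Whether the transgene's RNA holds the sequence they bind is not given in the labels, so the genotypes stand as labelled and are not checked by Prox1 itself. The dissected tissue read as pancreas on every array, with Cpa1, an acinar carboxypeptidase, at 14.57 to 14.64 in Prox1-OE and 14.64 to 14.69 in control. Of 6 endocrine markers limma called 1 lower, Chga, where it called 0.0055% of all genes lower. Chga read 7.41, 7.66 and 7.28 in Prox1-OE and 9.17, 8.94 and 8.76 in control (limma's adjusted p 0.031). Groups did not overlap for 3 of the 6, all lower, where 7.02% of all genes were so. Pearson correlations between arrays over all 45037 probe sets ran from 0.988 to 0.994. The labels gave no sex. Xist, the RNA that silences an X chromosome in females, read 11.22 on Prox1-OE replicate 2 and 11.60 on control replicate 2, and 4.0 to 4.29 on the other arrays. Eif2s3y, on the Y chromosome, read 3.06 and 2.89 on those arrays and 7.61 to 7.96 on the others, so each group held 1 array of the female pattern.

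The start regions of the genes that the results turn on are shown because Glycam1 and Ptprc differed most between arrays, and because Madcam1 and Icam1 held cytokine-response motifs. RefSeq windows of 250 bases before to 50 bases after a transcript start (build GRCm38.p6) matched 8 of the 9 genes, with 10 windows in all. Vcam1 had no window and was not searched. The motifs sought on both strands were the NF-κB consensus, by its name, and the interferon-gamma activated site TTCNNNGAA. The Madcam1 window held 2 matches to the NF-κB consensus, which spanned bases -83 to -74 and -70 to -61 from the start. The Glycam1 window held 1 interferon-gamma activated site at -145 to -137 and the Icam1 window 1 at -42 to -34. The other windows held neither motif. Among the 32851 windows of all genes, 8.46% held the NF-κB consensus and 8.3% the activated site, and a match of letters says nothing of binding. Capitals mark the matches; sequences run 5′ to 3′ on the gene's strand.
Glycam1, chr15:103565032-103565331, minus strand: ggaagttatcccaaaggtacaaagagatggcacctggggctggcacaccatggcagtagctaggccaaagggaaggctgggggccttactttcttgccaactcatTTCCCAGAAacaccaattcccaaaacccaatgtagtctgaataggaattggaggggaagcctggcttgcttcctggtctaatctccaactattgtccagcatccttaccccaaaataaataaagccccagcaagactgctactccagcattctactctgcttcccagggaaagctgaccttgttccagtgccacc
Ptprc, chr1:138175256-138175555, minus strand: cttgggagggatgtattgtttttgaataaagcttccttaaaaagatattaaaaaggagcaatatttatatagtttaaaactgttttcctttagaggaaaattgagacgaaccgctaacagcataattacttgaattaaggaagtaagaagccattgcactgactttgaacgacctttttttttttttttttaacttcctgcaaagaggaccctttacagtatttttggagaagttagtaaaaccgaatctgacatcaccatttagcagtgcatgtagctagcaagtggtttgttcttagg
Madcam1, chr10:79664309-79664608, plus strand: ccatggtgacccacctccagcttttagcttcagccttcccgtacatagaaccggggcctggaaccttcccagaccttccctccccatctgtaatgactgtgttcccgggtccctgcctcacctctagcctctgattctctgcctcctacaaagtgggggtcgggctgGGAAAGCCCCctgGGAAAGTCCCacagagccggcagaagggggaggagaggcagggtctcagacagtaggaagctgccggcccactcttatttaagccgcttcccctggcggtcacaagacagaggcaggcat
Icam1, chr9:21015690-21015989, plus strand: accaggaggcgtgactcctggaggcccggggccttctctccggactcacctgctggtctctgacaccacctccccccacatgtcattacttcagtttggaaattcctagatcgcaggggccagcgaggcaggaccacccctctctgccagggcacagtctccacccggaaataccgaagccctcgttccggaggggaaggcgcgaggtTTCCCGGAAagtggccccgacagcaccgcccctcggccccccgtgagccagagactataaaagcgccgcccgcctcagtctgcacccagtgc

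Glycam1 and Ptprc were far higher on Prox1-OE replicates 1 and 3 than on the controls, and Vcam1 was so on 1 of its probe sets. On Prox1-OE replicate 2 all 3 genes lay at or near the control level. The other members differed little. Since whole pancreas was measured, more cells of a type and more RNA per cell cannot be told apart.

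Glycam1 encodes a secreted mucin of high endothelial venules that carries selectin-binding sugars, and is also made by the lactating mammary gland. Its probe set read 8.49, 3.26 and 6.83 on Prox1-OE replicates 1, 2 and 3, against 3.30, 3.49 and 3.72 on control replicates 1, 2 and 3. Replicates 1 and 3 stood far above every control and replicate 2 just below all of them, so that the groups overlapped. Prox1-OE averaged 6.19 ± 2.67 and control 3.5 ± 0.21 (SD, n = 3 each), a difference of 2.69 ± 1.05 (SE). The signal of Prox1-OE replicate 1 was 31.7 times and that of replicate 3 10 times the control mean. The control values lay near the lower quartile of all probe sets, at 3.41 to 3.46 on the 6 arrays, and whether they were above background is unknown, so these are ratios of signal and may understate those of RNA. That probe set lay at percentile 92.3 of all probe sets on Prox1-OE replicate 1, at 80.0 on replicate 3 and at 19.4 on replicate 2. Its range over the 6 arrays, 5.23, ranked 9th of 45037; the 8 larger ranges belonged to Xist, Reg3b, Reg3g, Ang and 1 probe set with no single gene symbol. Without Prox1-OE replicate 1 the difference was 1.54, and without replicate 2 it was 4.16.

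Madcam1 encodes the mucosal addressin, which joins a mucin stretch with a binding site for a gut-homing integrin. It read 4.36, 3.71 and 4.57 on the Prox1-OE arrays and 3.87, 3.62 and 4.26 on the control arrays. The order over the Prox1-OE arrays was again low on replicate 2, but control replicate 3 lay close to the high arrays. The difference was 0.30 ± 0.23 (SE), about the spread within groups, at percentile 43.4 of mean level. It rested on single arrays, at 0.12 without Prox1-OE replicate 3, 0.15 without control replicate 2, 0.47 without control replicate 3 and 0.55 without Prox1-OE replicate 2. Cd34 encodes a sialomucin of endothelium in general and of blood progenitors. It read 7.77, 7.52 and 7.34 in Prox1-OE and 7.49, 7.19 and 7.35 in control, with overlapping groups and a difference of 0.20 ± 0.13 (SE). That was 0.09 without Prox1-OE replicate 1, 0.12 without control replicate 2 and 0.30 without Prox1-OE replicate 3.

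The probe sets of the enzymes that finish the sugars of the venules' mucins did not follow Glycam1 in size. Chst4, the sulphotransferase of high endothelial cells, read 3.21, 2.86 and 3.05 in Prox1-OE and 2.88, 3.05 and 3.02 in control, at percentile 8.7 of mean level. Every value lay under the lower quartile of all probe sets. Whether they were above background is unknown, so a change in its RNA could be missed. Prox1-OE replicate 1 was the highest array, yet the difference was 0.06 ± 0.11 (SE) and turned to -0.03 without that array. Fut7, the fucosyltransferase of leukocytes and high endothelium, read 4.63, 4.77 and 4.40 in Prox1-OE and 4.49, 4.92 and 4.77 in control, at percentile 54.3 of mean level. Its groups overlapped and its difference was -0.13 ± 0.14 (SE), and ran from -0.24 without control replicate 1 to -0.03 without Prox1-OE replicate 3.

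Selp encodes P-selectin, stored in platelets and endothelial cells and used by inflamed vessels. Its brightest probe set (1420558_at) read 5.67, 5.34 and 5.67 in Prox1-OE and 5.68, 5.40 and 5.62 in control. Replicate 2 was the lowest array of both groups, the groups overlapped and the difference was -0.01 ± 0.13 (SE). The other probe sets of Selp differed by -0.14 and -0.08 and overlapped too; that at -0.08 (1440173_x_at) has a suffix marking probes shared with other transcripts.

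Vcam1 encodes the endothelial and stromal adhesion molecule held by the integrin of lymphocytes and monocytes, and its probe sets disagreed. Probe set 1448162_at read 7.06, 4.20 and 5.39 in Prox1-OE and 4.28, 4.43 and 4.25 in control. Prox1-OE replicate 1 was 6.68-fold and replicate 3 2.10-fold above the control mean, and replicate 2 was below every control. The difference was 1.23 ± 0.57 (SE), and was 0.48 without Prox1-OE replicate 1 and 1.91 without replicate 2. Probe set 1415989_at read 5.30, 4.36 and 5.30 in Prox1-OE against 4.69, 4.62 and 4.49 in control, a difference of 0.39 ± 0.23 (SE) with the same arrays on top, which was 0.23 without either of them and 0.70 without replicate 2. The brightest, 1451314_a_at, read 5.39, 5.04 and 4.85 against 5.01, 5.13 and 4.90, with Prox1-OE replicate 3 as the lowest array and a difference of 0.08 ± 0.14 (SE). Profiles centred on their means differed by a root mean square of 0.93 between 1448162_at and the brightest probe set, where the 3 Selp probe sets differed by 0.11 to 0.18. When genes were read from their brightest probe set, Vcam1 thus showed next to no difference, and as the mean of its probe sets it showed 0.57.

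Icam1 encodes the endothelial and leukocyte adhesion molecule that the integrin LFA-1 binds, and cytokines induce it. It read 4.79, 4.26 and 4.21 in Prox1-OE and 4.09, 4.31 and 4.35 in control. Only Prox1-OE replicate 1 stood above the controls, and the difference of 0.17 ± 0.16 (SE) was -0.01 without it.

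Ptprc encodes the common leukocyte antigen, a tyrosine phosphatase on nucleated blood cells. Probe set 1422124_a_at read 8.92, 5.55 and 7.56 in Prox1-OE and 5.38, 5.21 and 5.19 in control. All Prox1-OE arrays lay above all controls, replicate 2 by little. Prox1-OE averaged 7.34 ± 1.69 and control 5.26 ± 0.11 (SD, n = 3 each), a difference of 2.08 ± 0.67 (SE), and of 1.30 without Prox1-OE replicate 1. Over the control mean, replicate 1 was 12.6-fold, replicate 3 4.91-fold and replicate 2 1.23-fold higher. The dimmer probe set 1440165_at read 4.24, 3.09 and 3.46 in Prox1-OE and 2.99, 3.22 and 3.07 in control, in the same order over the Prox1-OE arrays. Its difference of 0.51 was 0.18 without Prox1-OE replicate 1 and 0.76 without replicate 2.

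**Figure D1:**
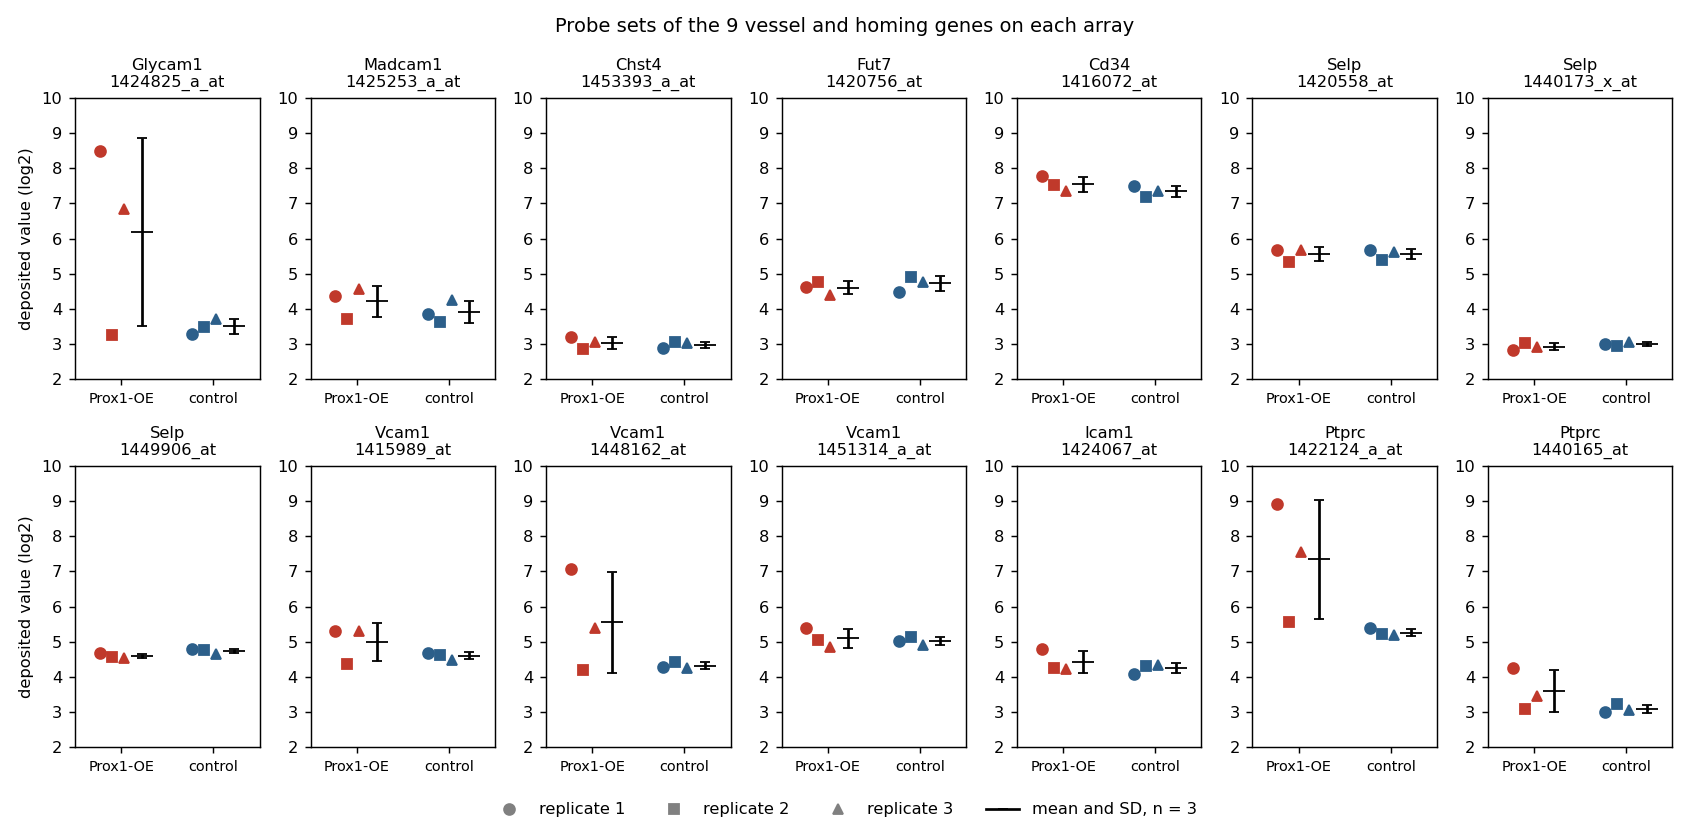
Deposited log2 value of each of the 14 probe sets on the 3 Prox1-OE arrays (red, left) and the 3 control arrays (blue, right), with marker shapes for replicates and black bars for mean and SD. Glycam1, Ptprc 1422124_a_at and Vcam1 1448162_at are high on Prox1-OE replicates 1 and 3, at 8.49 and 6.83, 8.92 and 7.56, and 7.06 and 5.39.

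Among the 14 probe sets, 1 (Ptprc 1422124_a_at) was higher in Prox1-OE with groups that did not overlap, where 4.6% of all probe sets were, and 0 were lower, where 6.8% of all were. Prox1-OE replicate 1 was the highest array for 9 of the 14. Prox1-OE replicates 1 and 3 both exceeded every control for 6 of the 14 probe sets, those of Glycam1 and Madcam1, 2 of Vcam1 and both of Ptprc, where 9.76% of all probe sets did. Prox1-OE replicate 2 exceeded every control for 2 of the 14, where 21.2% of all did. The median difference of the members was 0.18, and that of all probe sets -0.02. Of 45037 probe sets, limma called 3 higher (0.00666%) and 2 lower (0.00444%), together 0.0111%, at an adjusted p under 0.05.

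The array of the female pattern was also the Prox1-OE array without high Glycam1, Ptprc and Vcam1, while the control arrays of both patterns were low. With both female-pattern arrays left out, the differences were 4.15 for Glycam1, 2.95 for Ptprc 1422124_a_at and 1.96 for Vcam1 1448162_at. With the Xist class of the array (high or low) as a covariate they were as without it, because each group held 1 high array. Within the female pattern, Glycam1 read 3.26 in Prox1-OE and 3.49 in control and Ptprc 5.55 and 5.21, with 1 array a group. Whether sex had a part in the result was not tested.

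The genes with profiles most like Glycam1 and Ptprc were named by a measure of likeness alone. Likeness was the root mean square difference over the 6 arrays between profiles centred on their own means, and values on 1 array share its RNA sample. Nearest to Glycam1 were Cd52 (0.67), a small surface protein of lymphocytes, Ptprc (0.68), Ms4a4b (0.71), of T cells, Btla (0.73), an inhibitory receptor of B and T cells, and Ms4a1 (0.78), of B cells. Nearest to Ptprc were Ms4a1 (0.17), Btla (0.18), Cd52 (0.20), Coro1a (0.29), an actin-binding protein of leukocytes, and H2-Aa (0.33), a class II histocompatibility chain. Btla, for one, read 7.19, 3.58 and 5.65 in Prox1-OE and 3.83, 3.75 and 3.45 in control. These profiles share the order replicate 1, then 3, then 2 over the Prox1-OE arrays, and Glycam1 had the widest gap between replicates 3 and 2, at 3.57. Glycam1 was among 7 genes with a probe set at least 2 above the control mean on both Prox1-OE replicates 1 and 3. The others were H2-Aa, Cd52, Ms4a1 and Ptprc, and Serpina6 and Phgdh, which were highest on Prox1-OE replicate 2; Phgdh was also high on control replicate 3, at 11.53.

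**Figure D2:**
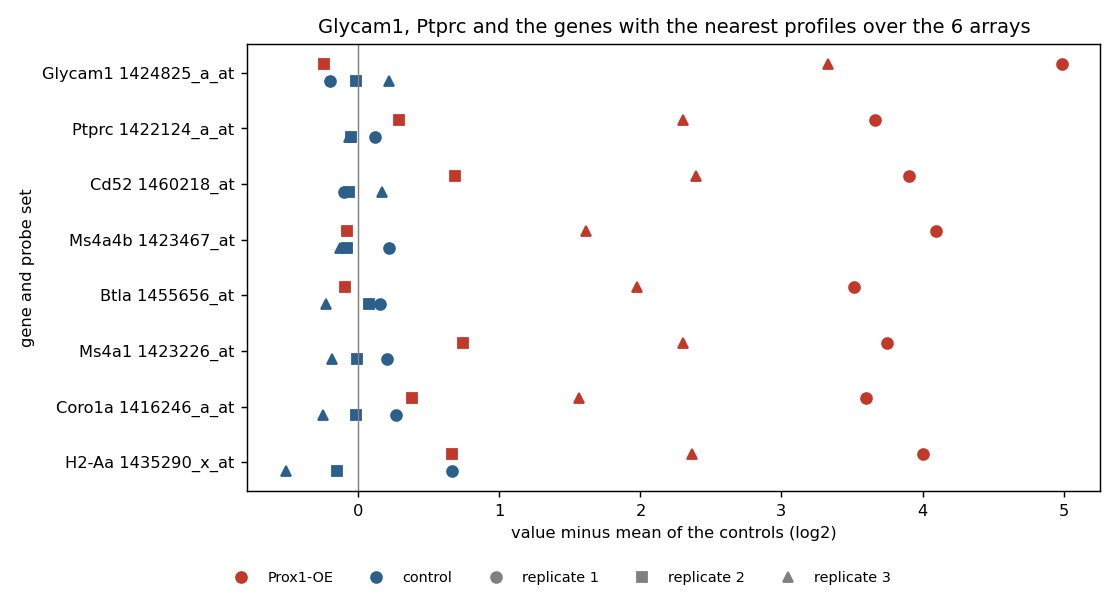
Log2 value minus the control mean (x axis) for Glycam1, Ptprc and the 6 other genes nearest to them, with Prox1-OE arrays in red and control arrays in blue. Prox1-OE replicate 1 (circle) is the highest and replicate 3 (triangle) the next for all 8 genes, and replicate 2 (square) lies at most 0.74 above the control mean.

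The wider homing pathway was read from 7 lists with 93 measured genes, apart from the members, each from its brightest probe set. Limma called 0 of them higher and 0 lower, where 0.0165% and 0.0055% of all genes, together 0.022%, were called; 12 were higher and 4 lower at an unadjusted p under 0.05, which 6.72% of all genes reached. The smallest adjusted p was 0.772. Of the 93 genes 66 had a positive difference, against 46.2% of all genes, and their median difference was 0.06, against -0.01 for all genes. Prox1-OE replicate 1 was the highest array for 38 of the 93, where it was so for 18.9% of all genes. Groups did not overlap for 8 genes that were higher and 6 that were lower, where 5.05% and 7.02% of all genes were so.

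Enzymes of selectin ligand synthesis did not lean towards Prox1-OE: 5 of 14 had a positive difference (median -0.04). The members with the smallest p were Slc35c1, the GDP-fucose carrier of the Golgi, at -0.24 ± 0.10 (SE), C1galt1c1, the chaperone of the core O-glycan enzyme, at 0.27 ± 0.11, and Gne, of sialic acid synthesis, at -0.16 ± 0.12. Among selectins and their ligands 5 of 8 were positive (median 0.10). Selplg, the leukocyte ligand of P-selectin, read 6.36, 5.78 and 6.03 in Prox1-OE and 5.83, 5.80 and 5.80 in control, a difference of 0.25 ± 0.14 (SE). Spn, a leukocyte sialomucin, differed by -0.21 ± 0.09 and Cd24a, a mucin-like ligand of P-selectin, by 0.16 ± 0.11. Other endothelial adhesion molecules were positive in 9 of 13 (median 0.04), with Cd99l2, of transmigration, at -0.26 ± 0.12, Aoc3, the vascular amine oxidase, at 0.22 ± 0.13 and Icam2 at 0.24 ± 0.19.

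Leukocyte integrins and their activators were positive in 11 of 12 (median 0.20). Fermt3, the kindlin that activates integrins in blood cells, read 7.29, 5.51 and 6.35 in Prox1-OE and 5.36, 5.43 and 5.15 in control. Its arrays kept the order of Ptprc, and the groups did not overlap (difference 1.07 ± 0.36 SE). Itgam, the alpha chain of the myeloid integrin Mac-1, read 3.43, 3.53 and 3.21 in Prox1-OE and 3.05, 2.91 and 2.96 in control. That difference of 0.42 ± 0.11, at a dim level, did not keep the order of Ptprc. It was 0.46, 0.56 and 0.24 on Prox1-OE replicates 1, 2 and 3. Itga4, the chain that pairs to bind Vcam1 and Madcam1 products, read 5.84, 5.11 and 5.10 in Prox1-OE and 5.18, 4.75 and 4.63 in control (0.50 ± 0.22 SE).

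Homing chemokines, their receptors and egress genes were positive in 12 of 16 (median 0.18). Cxcl12, a stromal chemokine, read 9.29, 8.23 and 8.87 in Prox1-OE and 8.42, 7.67 and 7.76 in control, with control replicate 1 above Prox1-OE replicate 2. Its receptor Cxcr4 differed by 0.34 ± 0.12 (SE), below the median level, and Ccl20, a chemokine of mucosal follicles, by -0.26 ± 0.09. Cxcl13, the chemokine that draws B cells into follicles, did not keep the Glycam1 order: it read 6.5, 7.59 and 5.54 in Prox1-OE, highest on replicate 2, and 5.47, 5.77 and 5.46 in control.

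Genes of lymphoid stroma and lymphotoxin signalling were positive in 15 of 17 (median 0.05). Il33, a cytokine of stromal and endothelial cells, read 6.87, 5.76 and 5.33 in Prox1-OE and 4.81, 4.96 and 5.05 in control, with no overlap (1.05 ± 0.32 SE). Tnfsf11, the cytokine RANKL, which lymph node formation needs, read 4.82, 3.52 and 4.03 against 3.12, 3.37 and 3.48 (0.80 ± 0.28). Pdpn, of lymphatic and reticular stromal cells, differed by 0.66 ± 0.22 and was highest on Prox1-OE replicate 2, at 6.85. Ltb, a lymphotoxin chain named after its values were seen, read 7.04, 5.02 and 5.90 in Prox1-OE and 4.99, 5.16 and 5.05 in control, in the order of Ptprc. Among NF-κB targets that cytokines induce, 9 of 13 were positive (median 0.06). Ccl5, a T cell chemokine, read 6.19, 4.20 and 4.76 in Prox1-OE and 3.97, 3.98 and 4.31 in control (0.96 ± 0.42), Cxcl10 differed by 0.36 ± 0.14 and Cxcl1 by -0.24 ± 0.09. Limma's adjusted p of the pathway genes named from the lists lay between 0.772 and 0.862.

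**Figure D3:**
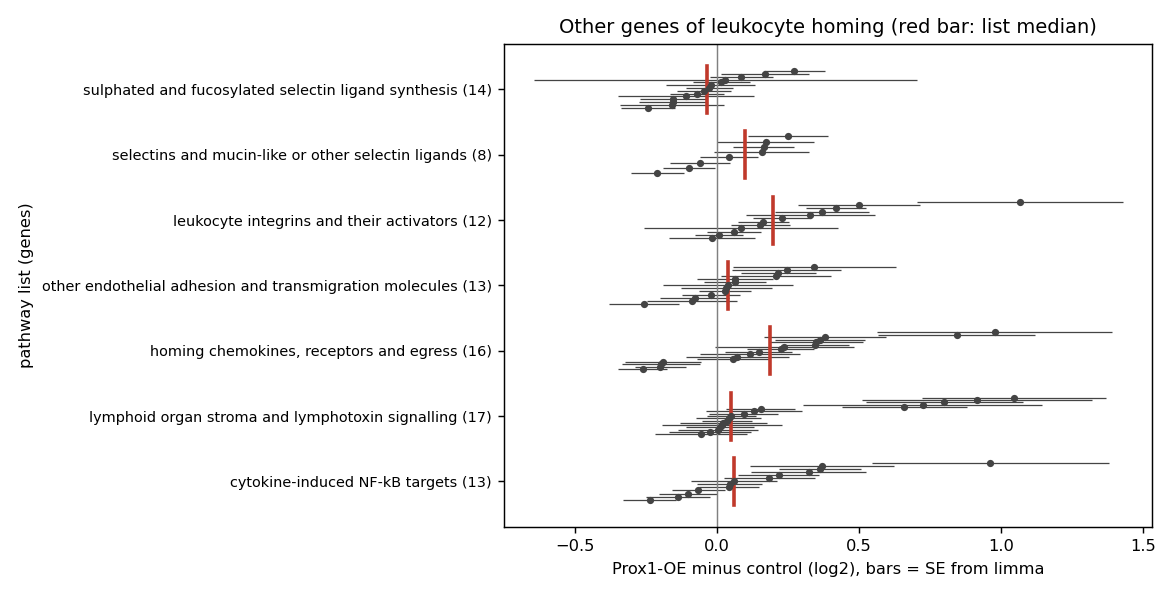
Difference between Prox1-OE and control (log2, x axis) for the 93 genes of the 7 pathway lists, 1 point a gene with its SE from limma, and the list median as a red bar. Medians run from -0.04 for selectin ligand synthesis to 0.20 for leukocyte integrins, and no gene passed the threshold.

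Averaged over their lists, markers of B cells, T cells and lymphatic endothelium were highest on the same arrays as Glycam1. Prox1-OE replicate 1 was the highest array for 6 of 8 B cell, 6 of 8 T cell and 5 of 6 lymphatic genes. It was also highest for 8 of 9 macrophage genes, and for 18.9% of all genes. Pax5, Cd79a, Cd3e, Cd8a and C1qa were highest on a control array and Pdpn on Prox1-OE replicate 2. The 8 B cell markers averaged 0.96, 0.06 and 0.35 above the control mean on Prox1-OE replicates 1, 2 and 3, and the controls lay within -0.02 and 0.02. Their summed linear signal ran from 135 to 422 in Prox1-OE and from 127 to 130 in control, and 6 of the 8 had a mean under the median of all probe sets. Ms4a1 carried much of it, at 7.80, 4.79 and 6.35 against 4.25, 4.04 and 3.86. On Prox1-OE replicate 3 Ms4a1 stood 2.30 and Cd22, named after its values were seen, 0.54 above the control mean. The other B cell markers lay at -0.30 to 0.21 there. Cd79a, a chain of the B cell receptor, was flat at 3.64 to 4.07 against 3.79 to 4.19. Cd79b, the other chain, read 5.15, 3.76 and 3.81 in Prox1-OE and 3.36 to 3.79 in control. The 8 T cell markers averaged 0.53, -0.16 and 0.14 (controls -0.05 to 0.06), with summed signal of 197 to 271 in Prox1-OE and 206 to 228 in control. By that sum Prox1-OE replicate 3, at 221, was below control replicate 3, at 228. Cd3d, of the T cell receptor complex, read 5.62, 3.74 and 4.10 in Prox1-OE and 3.64 to 3.85 in control, and Cd3g 4.65, 2.84 and 3.54 against 3.32 to 3.35. Cd3e did not, at 4.21 to 4.73 against 4.63 to 4.82.

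The 6 lymphatic endothelial markers averaged 0.94, 0.06 and 0.43 on the Prox1-OE arrays and -0.11 to 0.13 on the controls (summed signal 364 to 651 against 295 to 339). Lyve1, a hyaluronan receptor of lymphatic vessels, read 8.56, 7.23 and 7.76 in Prox1-OE and 7.11 to 7.24 in control. Pdpn read 5.96, 6.85 and 6.54 in Prox1-OE and 5.54 to 6.05 in control, in another order. Flt4, the receptor for lymphatic growth factors, read 5.95, 5.39 and 5.49 against 5.26 to 5.70. Blood endothelial markers did not follow as a list: the 9 averaged 0.21, 0.03 and 0.05 in Prox1-OE and 0.23, 0.13 and -0.36 in control (summed signal 802 to 883 against 608 to 894). Pecam1, at junctions of all endothelium, read 5.58 to 6.01 in Prox1-OE and 4.69 to 5.93 in control. Cdh5, the endothelial cadherin, read 5.53 to 6.11 against 5.35 to 6.15. Kdr, a growth factor receptor, read 7.31, 7.08 and 7.25 against 6.81 to 7.04, in the order of Glycam1. Kdr was the 1 gene of the 9 that was higher without overlap, where 5.05% of all genes were so.

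Macrophage markers averaged higher on all Prox1-OE arrays than on any control, at 0.93, 0.37 and 0.35 on average over 9 genes (controls -0.17 to 0.18; summed signal 1656 to 2723 against 1178 to 1603). Groups did not overlap for 5 of the 9, all higher, where 5.05% of all genes were so. Cd68, of macrophage lysosomes, read 5.82, 5.40 and 5.21 against 4.79 to 4.97, Csf1r, the receptor for the macrophage growth factor, 9.57, 8.5 and 8.88 against 8.32 to 8.63, and C1qa 8.04 to 8.23 against 7.91 to 8.51. The 5 measured follicular dendritic cell markers averaged 0.36, 0.45 and 0.21 (controls -0.07 to 0.08; summed signal 6495 to 7243 against 6011 to 7017), with Cr2 at 3.36 to 3.73 against 3.45 to 3.60 and Fcer2a at 3.59 to 3.86 against 3.5 to 3.78, both also B cell markers. Other members differed more: Cxcl13, given above, differed by 0.98 ± 0.42 (SE), and Mfge8, a milk fat globule protein also made by macrophages and named after its values were seen, read 8.44, 8.34 and 8.81 in Prox1-OE and 7.92 to 8.20 in control, with no overlap (0.48 ± 0.14; limma's adjusted p 0.777). The 6 platelet markers averaged -0.02 to 0.05 in Prox1-OE and -0.07 to 0.08 in control (summed signal 420 to 477 against 353 to 395). They split: groups did not overlap for 1 that was higher, Pf4, and 1 that was lower, where 5.05% and 7.02% of all genes were so. Pf4, a platelet chemokine, read 8.23, 8.03 and 7.97 in Prox1-OE and 7.63 to 7.83 in control. Casein genes of mammary epithelium, the other known source of Glycam1, were near the floor of the arrays. Csn2 read 3.09 to 3.27 in Prox1-OE and 3.01 to 3.22 in control, Csn3 3.20 to 3.24 against 3.21 to 3.38, and the summed signal of the 5 mammary markers was 54 to 62 against 52 to 59. Limma called 0 genes of these 8 lists, where it called 0.022% of all genes, and none of their genes reads 0 on this scale. How much lymphoid tissue each sample held, and its part in the values of Glycam1, Ptprc and Vcam1, was not tested.

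**Figure D4:**
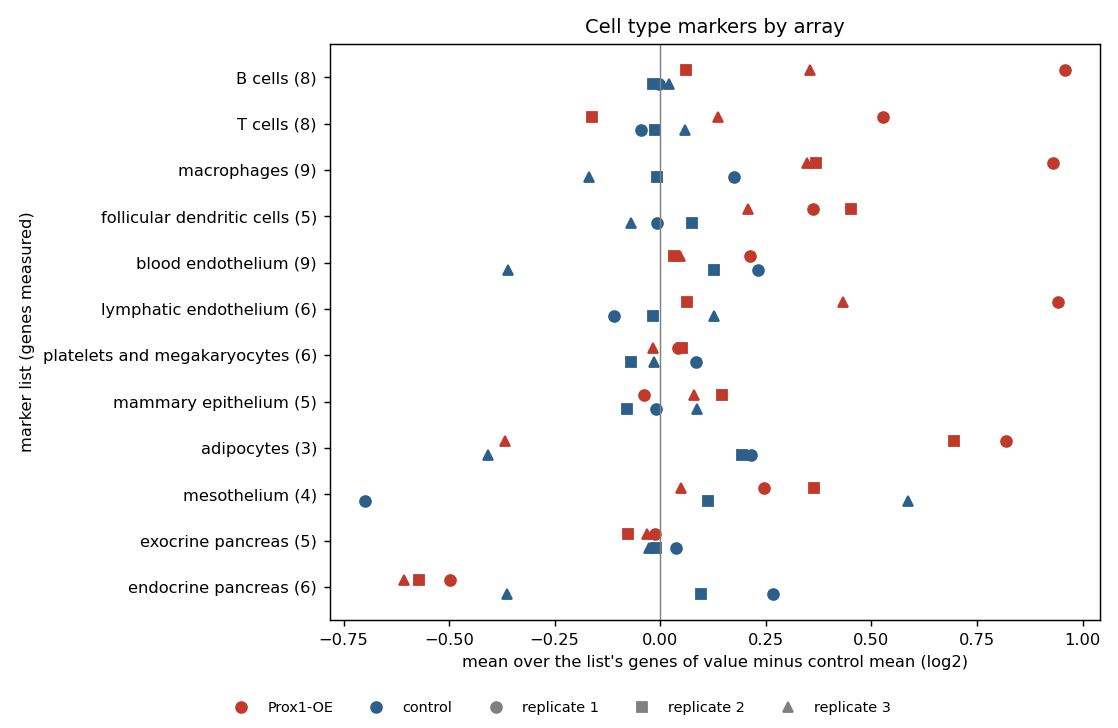
Mean over each marker list of the log2 value minus the control mean (x axis), with Prox1-OE arrays in red, control arrays in blue and marker shapes for replicates. B cell, T cell and lymphatic endothelial markers are highest on Prox1-OE replicate 1 (0.96, 0.53 and 0.94) and next on replicate 3 (0.35, 0.14 and 0.43), and blood endothelial markers are not. Macrophage markers are also highest on replicate 1, at 0.93, but about equal on replicates 2 and 3 (0.37 and 0.35).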

How the data were processed

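The deposited values were log2 probe set summaries of 6 arrays, made from 100 ng of total RNA per the labels' protocols. RMA and Partek 6.5 were named in the submitters' processing notes without settings; their genome build is not given in the sources used here. RMA equalizes the arrays' distributions and compresses differences of dim probe sets. Of 45101 probe sets, 64 Affymetrix controls were left out. Probe sets were named from the platform annotation where it gave 1 symbol (34945).

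Prox1-OE was compared with control over 45037 probe sets with limma 3.58.1 in R 4.3.3 (lmFit, eBayes, no covariate, Benjamini-Hochberg, threshold 0.05, two-sided), checked on simulated data. List genes were read from the probe set with the highest mean. Members and lists were chosen with earlier results of these data known. As no label ties a sample to its own animal, p-values reflect only sample-to-sample spread, which may be technical, and the number of arrays limits precision. Genes were named by rule: every member, up to 3 genes of each pathway list with the smallest p, up to 3 markers of each marker list described, and the 5 genes nearest to a member whose brightest probe set exceeded the median level and ranged over at least 1. Fits that took account of Xist were added after seeing the data. Tests of the members, set tests and protein sequences were not used here.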

Additional observations from a re-analysis of the deposited data

How the results depend on the processing

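Under 17 other settings, the 195 recomputed member differences changed sign in 8 cases, on 4 probe sets (Chst4, Selp 1420558_at, Vcam1 1451314_a_at and Icam1) whose differences ran from -0.01 to 0.17. 1 moved by more than the spread between replicates: Vcam1, at 0.57 as the mean of its probe sets. Glycam1 ran from 1.54 to 4.16 and Ptprc 1422124_a_at from 1.30 to 2.98 without any 1 array.

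Over all probe sets, 3 were called higher and 2 lower. With the brightest probe set of each gene or the mean of its probe sets, where fewer rows were tested, 4 were called higher and 1 lower. Replicate numbers are shared by the groups without a stated pairing. With the replicate block 2 were called higher and 0 lower, and 0 of the endocrine pancreas genes were called lower in place of 1 (Chga). Deviations of same-numbered arrays correlated at 0.06, 0.17 and 0.10, each array best with its own number. That is at most a hint from the data and not the design. The pair at 0.17, replicate 2, was the array of the female pattern in both groups. What shared sex adds to these correlations was not tested. Without any 1 array, 0 to 5 were called higher and 0 to 3 lower, and 0 to 1 endocrine genes. Groups then did not overlap for 8.41% to 9.76% of probe sets higher and 11.5% to 14% lower, since fewer arrays overlap less often. Of the members this held for 1 to 6 higher and 0 to 1 lower; the 6 were without Prox1-OE replicate 2. With both high-Xist arrays left out, also by fewer arrays, 15.4% of probe sets and 7 member probe sets were higher without overlap, 18.6% and 1 lower, and 0 probe sets and 0 endocrine genes were called. With the Xist class (high or low) as a covariate 0 were called in either direction, endocrine genes included. In the 7 pathway lists and the other 11 marker lists 0 genes were called under each setting run. The cause of these changes beyond the number of arrays or rows was not tested. RMA gives no detection calls, so whether dim members such as Chst4 were above background is unknown.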

Other observations

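Markers of tissue that lies around the pancreas varied between arrays in other orders than Glycam1. Adiponectin (Adipoq), a hormone of fat cells, read 5.62, 5.87 and 3.57 on Prox1-OE replicates 1, 2 and 3 and 4.55, 4.53 and 3.36 on the controls, so that replicate 3 was lowest in both groups. Fabp4, the fatty acid carrier of fat cells, ran the same way at 10.75, 10.59 and 10 against 10.68, 10.34 and 9.60. Cidec, the last of the 3 fat cell genes measured, did not. It read 3.93, 3.47 and 3.16 in Prox1-OE and 3.27, 3.55 and 3.65 in control, where replicate 3 was highest. Upk3b, a surface protein of mesothelium, read 6.96, 6.90 and 6.78 in Prox1-OE and 5.32, 6.49 and 7.25 in control, where it spread most. Wt1, a mesothelial transcription factor, read 5.54, 5.74 and 5.25 against 4.91, 5.34 and 6.08. Averaged over the 3 adipocyte genes, values minus the control mean were 0.82, 0.70 and -0.37 in Prox1-OE, against 0.22, 0.19 and -0.41 in control. Limma called 0 of the 3 adipocyte and 0 of the 4 mesothelial genes, where it called 0.022% of all genes.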
